A study of Drosophila melanogaster with 18 samples.

Results

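The comparison described here is that of 25 °C with 20 °C in ovaries of female Drosophila melanogaster of the genotype Marcal1del/del. It rests on 6 of the 18 Affymetrix Drosophila Genome 2.0 arrays of the series, chosen by sample title: 3 biological replicates at 25 °C and 3 at 20 °C. Both groups carry the same deletion genotype, so what differs between them by the labels is temperature alone. The labels call the rearing temperature of 25 °C a heat stress and 20 °C untreated, and give neither the length of the exposure nor the age of the flies. The same temperatures in yw females, again with 3 arrays each, serve for comparison. The remaining groups, RpII2154/FM7;Marcal1del/del and RpII2154/FM7, were held at 20 °C with 3 arrays each. They enter the fit and the levels given for some genes. The labels do not say whether the Marcal1del/del and yw stocks share a genetic background. The study's title places the work in the question of how environment and genotype disturb gene expression when SMARCAL1 is lost.

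Marcal1 is the fly counterpart of SMARCAL1, an annealing helicase of the SNF2 family that rewinds DNA coated with single-strand binding protein at stalled replication forks. In people, loss of both copies causes Schimke immuno-osseous dysplasia. Flies do not regulate their body temperature, so the temperature of rearing sets the pace of egg production, in which germline nurse cells supply the oocyte with RNA while the surrounding follicle cells deposit yolk and eggshell. Both temperatures lie within the range in which laboratory stocks are kept, and the classical heat shock response of flies is evoked by hotter conditions.

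The deletion was visible in the target gene at both temperatures. Marcal1 had levels of 5.94, 6.19 and 5.96 (log2 RMA units, a scale on which 1 unit is a 2-fold difference) at 25 °C in Marcal1del/del ovaries, and of 5.85, 5.90 and 5.87 there at 20 °C. In yw ovaries it had 7.83, 8.24 and 8.27 at 25 °C and 8.48, 7.53 and 7.81 at 20 °C, so all 6 Marcal1del/del arrays lay below all 6 yw arrays. Within Marcal1del/del the 25 °C minus 20 °C difference of Marcal1 was 0.16 ± 0.22 (SE), adjusted p = 1.00. The position of its probes relative to the deletion is not known here. The gene y, whose mutation names the yw stock, averaged 3.24 at 25 °C and 3.14 at 20 °C in Marcal1del/del ovaries, and 3.25 at 25 °C and 3.24 at 20 °C in yw ovaries, below the array medians of 4.07 to 4.20 in each case.

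The arrays carried an ovarian profile. Germline markers averaged 10.26, 10.24 and 10.27 at 25 °C and 10.14, 10.29 and 10.30 at 20 °C (11 genes, replicates 1 to 3 of each group). The follicle cell list averaged 11.38, 11.55 and 11.49 at 25 °C and 11.57, 11.94 and 10.99 at 20 °C (12 genes). It also holds yl, the yolk receptor gene of the oocyte, with means of 11.65 at 25 °C and 11.77 at 20 °C. Of the markers of tissues that should be absent, 10 of 11 accessory gland genes and 23 of 28 testis genes lay below every array's median on all 6 arrays, as did 11 of 22 gut genes and 11 of 22 neuron genes, against 32.5% of all genes. Markers of neighbouring tissue varied between arrays: muscle genes averaged 7.09, 6.25 and 5.55 at 25 °C and 5.93, 6.18 and 5.94 at 20 °C (25 genes), with replicate 1 at 25 °C highest. Spermatheca and seminal receptacle genes averaged 4.58, 4.35 and 4.32 at 25 °C and 5.65, 4.70 and 4.72 at 20 °C (16 genes), with replicate 1 at 20 °C highest. Pearson's r between arrays was 0.992 to 0.996 within groups of the series and 0.991 to 0.995 between them. The middle control set for 18S ribosomal RNA had 10.02, 12.79 and 13.19 at 25 °C and 12.82, 10.83 and 12.23 at 20 °C. The 3' minus 5' difference of the actin control was 0.92, 0.91 and 1.20 at 25 °C and 0.95, 0.98 and 1.23 at 20 °C. The part of these array differences in the calls was not tested.

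**Figure D1:**
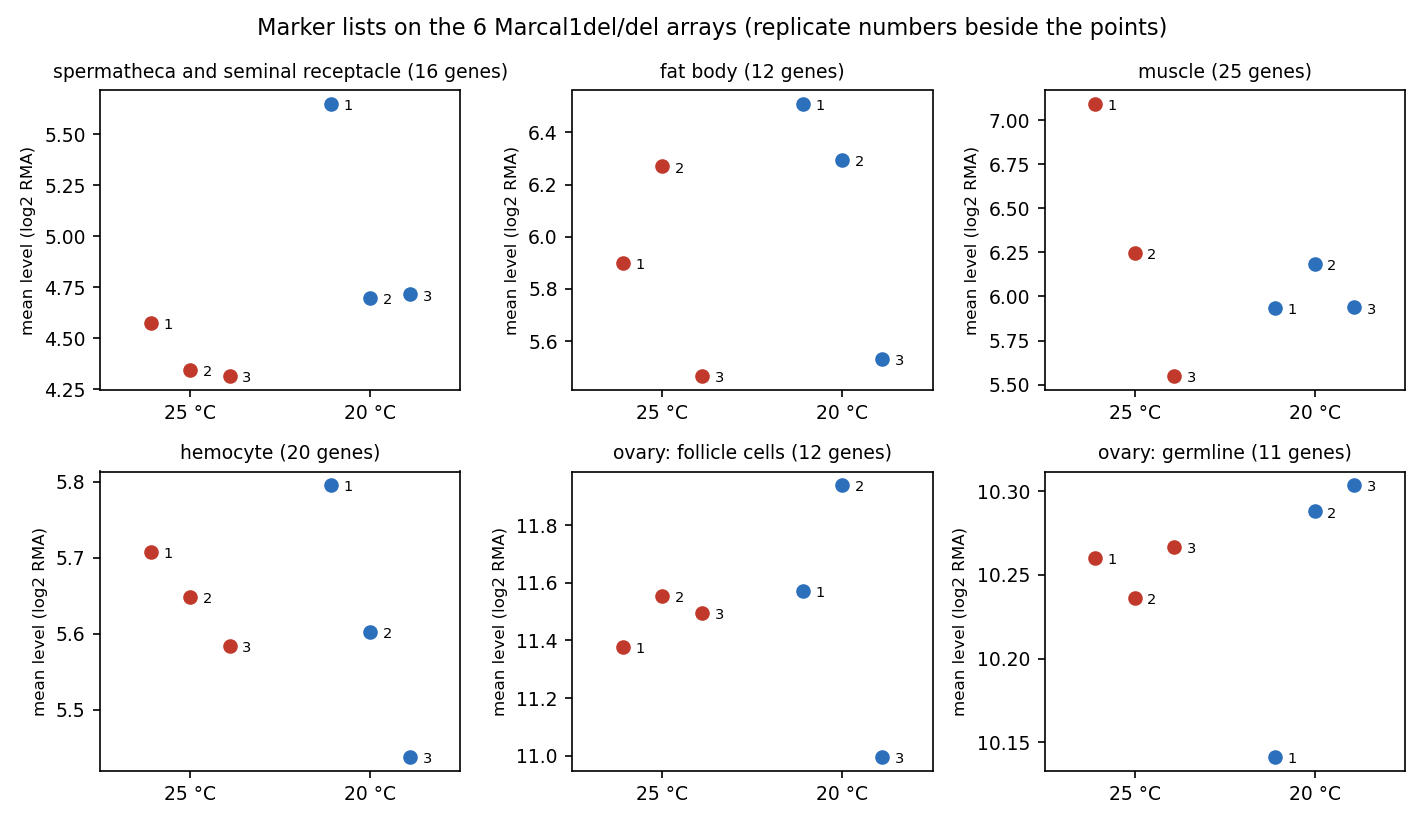
Mean level (log2 RMA, vertical axes) of each marker list on the 3 arrays at 25 °C (red) and the 3 at 20 °C (blue) of Marcal1del/del ovaries, 1 point per array with its replicate number. The spermatheca list is highest on replicate 1 at 20 °C (5.65) and the muscle list on replicate 1 at 25 °C (7.09), while the germline list spans only 10.14 to 10.30.

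Few probe sets were called as different between the temperatures. At 25 °C, 38 of 18769 probe sets (0.202%) differed from 20 °C at an adjusted p under 0.05, by limma with Benjamini-Hochberg adjustment over all probe sets. Of these, 25 were higher at 25 °C (0.133%) and 13 were lower (0.0693%), and the 3 values at 25 °C did not overlap the 3 at 20 °C in any of the 38, as was so for 1903 of all probe sets (10.1%). The called sets name 36 genes, 24 higher and 12 lower, and 1 set in each direction has no gene name here. Log2 changes exceeded 1 in size for 15 of the 25 rises and 6 of the 13 falls, against 78 of all probe sets (0.416%). At an unadjusted p under 0.05 there were 797 sets (4.25%). Over all probe sets the median log2 change was 0.00 and 50.8% of changes were positive, with a median standard error of 0.13. The count of calls rested on single arrays: it was 10 without 25 °C replicate 2, 18 without 25 °C replicate 3, 15 without 20 °C replicate 2 and 22 without 20 °C replicate 3, against 31 and 32 without replicate 1 at 25 °C and at 20 °C. Because whole ovaries were hybridised, fewer cells of a type and less RNA per cell cannot be told apart in any of these values.

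The largest called fall was that of CG10581, an uncharacterised gene on chromosome arm 3L. It had levels of 4.73, 4.77 and 4.49 at 25 °C, against 7.99, 7.66 and 7.37 at 20 °C. Its level was therefore close to the array medians at 25 °C and well above them at 20 °C on every array, a log2 change of -3.01 ± 0.14 (SE), 8.07-fold lower at 25 °C (adjusted p = 5.8e-09). Folds here are ratios of RMA values, and where a group lay near the array medians, no detection call was used and signal above background was not tested. The largest called rise was that of rst, which encodes roughest, an immunoglobulin-superfamily adhesion protein known for sorting cells in the developing eye. It had levels of 6.75, 7.45 and 7.24 at 25 °C, against 5.44, 4.47 and 4.41 at 20 °C. Its log2 change was 2.37 ± 0.36 (5.18-fold higher, adjusted p = 0.0084), but replicate 1 at 20 °C lay about 1 unit above the other two. The call of rst ended without replicate 2 or 3 of either temperature, with adjusted p up to 0.081.

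A group of 10 genes kept its calls when each of the 6 Marcal1del/del arrays was left out in turn, 8 of them higher at 25 °C (CG7381, otk2, Pms2, CG2961, CG7800, MCTS1, CG7565 and aub) and 2 lower (CG10581 and CG10208). Of these, CG10581, CG10208, CG7381, otk2 and Pms2 were called in all 23 alternative settings. CG7381, uncharacterised and on 3R, had levels of 6.56, 6.75 and 6.60 at 25 °C, against 4.29, 4.36 and 4.40 at 20 °C. Its 20 °C level was near the array medians and its replicates differed by less than 0.2 units within either group, beside a log2 change of 2.29 ± 0.14 (adjusted p = 9.5e-08). CG10208, also on 3R, fell to 5.98, 5.81 and 5.73 at 25 °C, against 7.33, 7.12 and 7.52 at 20 °C, a log2 change of -1.48 ± 0.18 (adjusted p = 9.2e-04). In RpII2154/FM7;Marcal1del/del and RpII2154/FM7 at 20 °C, CG7381 averaged 6.12 and 6.25, CG7565 6.61 and 6.68, CG7800 7.55 and 7.83, and aub 9.44 and 9.75. These lay nearer the Marcal1del/del level at 25 °C than that at 20 °C, so these genes also separated stocks at a single temperature. CG2961 (7.10 and 6.76) and MCTS1 (8.01 and 7.86) lay between the Marcal1del/del levels. CG10581 (6.86 and 7.41) and CG10208 (8.21 and 8.01) lay nearer the level at 20 °C.

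**Figure D2:**
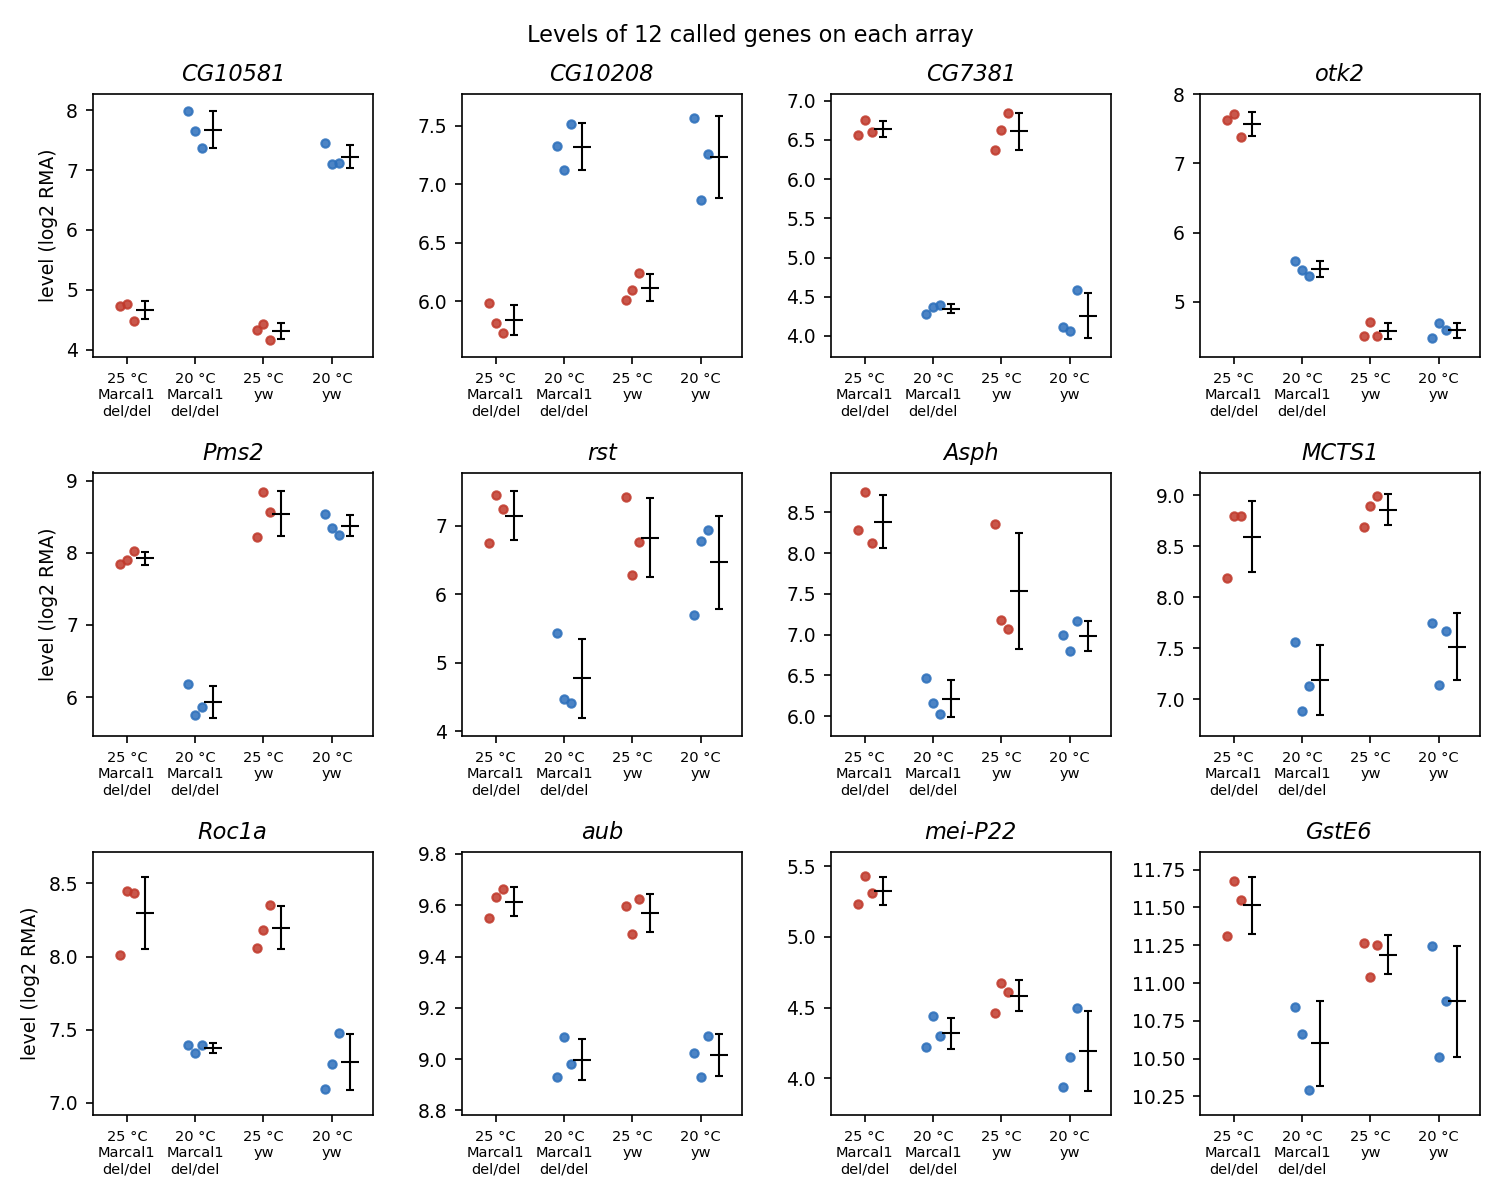
Level (log2 RMA, vertical axes) of 12 called genes on every array of Marcal1del/del and yw ovaries at 25 °C (red) and 20 °C (blue), with the mean and SD of 3 arrays beside the points. CG10581, CG10208 and CG7381 separate by temperature in both genotypes, while otk2 and Pms2 separate by temperature in Marcal1del/del and not in yw (adjusted p of 0.995 and 0.88 in yw).

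Genes of DNA repair and of the germline were among the rises. Pms2 encodes a MutL-family protein of DNA mismatch repair. It had levels of 7.84, 7.90 and 8.02 at 25 °C, against 6.18, 5.75 and 5.87 at 20 °C, a log2 change of 1.99 ± 0.14 (3.97-fold higher, adjusted p = 1.1e-06). All 3 arrays at 25 °C lay more than 1 unit above all 3 at 20 °C. It was the one called member among 31 measured genes of DNA repair and damage checkpoints, against 0.292% called of all genes, and the list's median log2 change was -0.04. Msh6, a mismatch recognition gene, differed by 0.09, and the largest negative value was that of the end-joining gene Ku80 at -0.38 (adjusted p = 0.80).

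mei-P22, required with mei-W68 to make the double-strand breaks that start meiotic recombination, had levels of 5.23, 5.43 and 5.31 at 25 °C and of 4.22, 4.44 and 4.30 at 20 °C. It rose by 1.00 ± 0.18 on the log2 scale (2.01-fold, adjusted p = 0.023), and the call ended without any 1 of the 6 arrays (adjusted p up to 0.17). mei-W68 itself differed by -0.11. The other 19 measured genes of meiotic recombination and synapsis were not called (0.292% of all genes were), with a list median of 0.01. Their values ran in both directions. The synaptonemal complex gene corolla averaged 6.37 at 25 °C and 5.18 at 20 °C (log2 difference 1.19 ± 0.28, adjusted p = 0.17), and narya, a RING finger gene of meiotic double-strand break formation, averaged 3.63 at 25 °C and 5.09 at 20 °C (-1.46 ± 0.52, adjusted p = 0.76).

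aub, a Piwi-clade Argonaute protein that cuts transposon RNA in the germline with piRNAs as guides, had levels of 9.55, 9.63 and 9.66 at 25 °C, against 8.93, 9.09 and 8.98 at 20 °C. The change was small, 0.62 ± 0.08 (1.53-fold higher, adjusted p = 0.0028), but the replicates were close and the groups well apart. It was the one called member of 33 piRNA pathway genes (0.292% of all genes were called), 23 of which had positive log2 changes with a list median of 0.08, against 51.2% positive and a median of 0.00 over all genes. The other Piwi-clade members, piwi and AGO3, differed by -0.11 and 0.16. The uncalled members with the largest positive values were the endonuclease gene zuc at 0.57 (adjusted p = 0.84) and BoYb at 0.55 (adjusted p = 0.65), and the largest negative value was that of moon, which acts in piRNA cluster transcription, at -0.47 (adjusted p = 1.00). At an unadjusted p under 0.05, 4 members were higher and 2 lower. In the list of maternal and germline factors aub was again the one call among 30 measured genes, and the list median was -0.02.

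MCTS1, Roc1a, RYBP and CkIIalpha-i3 rose in both genotypes. MCTS1, which acts with DENR to restart ribosomes after short upstream reading frames, had levels of 8.19, 8.80 and 8.79 at 25 °C, against 7.56, 6.88 and 7.12 at 20 °C. Its log2 change was 1.41 ± 0.19 (2.65-fold higher, adjusted p = 0.0039), with replicate 1 lowest of the 25 °C arrays and highest of the 20 °C arrays. It was the one call among 35 measured genes of translation initiation and reinitiation, of which 25 were positive with a median of 0.03. Of all genes, 0.292% were called and 51.2% were positive. Roc1a, the RING subunit of cullin-RING ubiquitin ligases, had levels of 8.01, 8.45 and 8.43 at 25 °C and of 7.39, 7.34 and 7.39 at 20 °C. It rose by 0.92 ± 0.13 (1.90-fold, adjusted p = 0.0063, or 0.064 without 25 °C replicate 2) and was the one call among 26 cell cycle regulators, 19 of them positive with a median of 0.04. Cul6, a cullin, averaged 7.57 at 25 °C and 6.65 at 20 °C in the same list (log2 difference 0.91 ± 0.21, adjusted p = 0.15). RYBP, a Polycomb-associated protein that binds ubiquitinated histone, rose by 0.75 ± 0.14 (adjusted p = 0.028), and CkIIalpha-i3, named as an interactor of the casein kinase II alpha subunit, rose by 0.71 ± 0.11 (adjusted p = 0.0084). Left-out arrays took these adjusted p-values to 0.22 for RYBP and 0.081 for CkIIalpha-i3.

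Among genes of nuclear transport, Kap-alpha3, an importin alpha that carries cargo into the nucleus, had levels of 7.34, 7.20 and 7.26 at 25 °C, against 7.99, 7.94 and 7.88 at 20 °C. It fell by 0.67 on the log2 scale (SE 0.13, 1.59-fold lower, adjusted p = 0.045), and the call ended without any 1 of the 6 arrays (adjusted p up to 0.26). It was the one call among 27 nuclear pore and import genes, against 0.292% called of all genes, and the list's median was -0.06. Its probe set carries the maker's mark for probes shared by several transcripts, so related transcripts cannot be told apart in its level.

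The genes otk2, Asph, Tsp96F and pon, which belong to none of the lists, were also among the rises. otk2 on 2R encodes off-track2, a transmembrane protein of the PTK7 family that can act as a Wnt co-receptor. It had levels of 7.63, 7.71 and 7.38 at 25 °C, against 5.59, 5.46 and 5.37 at 20 °C, and the lowest 25 °C array lay far above the highest 20 °C array. The log2 change was 2.10 ± 0.10 (4.29-fold higher, adjusted p = 7.6e-09), the smallest adjusted p among the rises. Asph, an aspartyl beta-hydroxylase that modifies EGF-like domains, had levels of 8.28, 8.75 and 8.13 at 25 °C and of 6.46, 6.16 and 6.02 at 20 °C. Its log2 change was 2.17 ± 0.31 (4.51-fold higher, adjusted p = 0.0044, or 0.052 without 25 °C replicate 2), and a second, dim probe set for the gene, with mean levels of 3.31 at 25 °C and 3.19 at 20 °C, differed by 0.12 ± 0.22, and the mean of both sets gave 1.15. The tetraspanin Tsp96F rose by 0.75 ± 0.13 (1.68-fold, adjusted p = 0.017), and pon, the adaptor that localises Numb during asymmetric cell division, rose by 1.39 ± 0.26 (2.62-fold, adjusted p = 0.042). The levels of pon were 8.12, 7.73 and 8.03 at 25 °C and 7.04, 5.80 and 6.88 at 20 °C, with replicate 2 at 20 °C more than 1 unit below the other two. With 1 array left out the adjusted p reached 0.086 for Tsp96F and 0.22 for pon.

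Called genes with known parts in intracellular signalling and vesicle traffic were Dhit and 5PtaseI, which rose, and Gbeta5, Rab27 and TBC1D16, which fell. Dhit, a regulator of G protein signalling, had levels of 7.61, 8.05 and 8.15 at 25 °C and of 6.66, 6.72 and 7.21 at 20 °C, a rise of 1.07 ± 0.19 (2.10-fold, adjusted p = 0.023). Gbeta5, a G protein beta subunit, had 5.35, 5.26 and 5.51 at 25 °C, against 6.34, 6.48 and 7.25 at 20 °C, a log2 change of -1.31 ± 0.25 (2.48-fold lower, adjusted p = 0.047). Dhit was thus higher and Gbeta5 lower at 25 °C on all 3 arrays. Rab27, a small GTPase of secretory vesicle docking, fell to 7.50, 7.28 and 7.40 at 25 °C, against 8.32, 8.85 and 8.96 at 20 °C, a log2 change of -1.31 ± 0.23 (adjusted p = 0.023). TBC1D16, of a family of proteins that switch off Rab GTPases, also fell, with 6.15, 6.17 and 6.22 at 25 °C and 7.12, 6.95 and 7.28 at 20 °C, a log2 change of -0.93 ± 0.16 (adjusted p = 0.023). 5PtaseI, an inositol polyphosphate 5-phosphatase, rose by 0.81 ± 0.12 on its brighter probe set (adjusted p = 0.0081), whereas its other set differed by -0.45 ± 0.13 (adjusted p = 0.46), and the mean of both sets gave 0.18. With 1 array left out, the adjusted p reached 0.064 for 5PtaseI, 0.14 for TBC1D16, 0.15 for Rab27, 0.19 for Dhit and 0.26 for Gbeta5. The call of TBC1D16 ended without any 1 of the 6 arrays.

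Of the defence genes, GstE6, an epsilon-class glutathione transferase, had levels of 11.31, 11.68 and 11.55 at 25 °C, against 10.84, 10.66 and 10.29 at 20 °C. It rose by 0.91 ± 0.17 (1.88-fold, adjusted p = 0.037) and was the one call among 33 oxidative stress and detoxification genes, whose median was -0.02. Of all genes, 0.292% were called and 51.2% were positive. GstE1, of the same class, averaged 10.35 at 25 °C and 9.48 at 20 °C (0.87 ± 0.20, adjusted p = 0.15), and GstE10 and GstE3 differed by 0.10 and -0.25. For GstE9, one probe set rose by 1.38 ± 0.22 (adjusted p = 0.011) with its 20 °C levels of 3.76, 3.54 and 3.40 below every array median, while the brighter set that represents the gene differed by -0.12 ± 0.37. The cytochrome P450 genes Cyp6w1 and Cyp6a17 differed by -1.90 (adjusted p = 0.51) and -0.86 (adjusted p = 0.14). PPO3, a prophenoloxidase of blood cells that feeds melanin synthesis, fell to 4.11, 4.50 and 4.57 at 25 °C, against 5.17, 5.19 and 5.62 at 20 °C, a log2 change of -0.94 ± 0.18 (1.91-fold lower, adjusted p = 0.047). It was the one call among 20 hemocyte markers, 15 of which had positive differences, and the list averaged 5.71, 5.65 and 5.58 at 25 °C and 5.80, 5.60 and 5.44 at 20 °C. With 1 array left out the adjusted p reached 0.26 for GstE6, 0.098 for GstE9 and 0.25 for PPO3. The call of PPO3 ended without any 1 of the 6 arrays.

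The other called genes have no established function named here, with 1 exception. CG2961 had levels of 8.0, 7.7 and 7.5 at 25 °C and of 6.2, 5.2 and 6.0 at 20 °C (log2 change 1.92 ± 0.23, adjusted p = 9.2e-04), and CG7800 had 7.94, 8.23 and 8.19 at 25 °C and 6.72, 5.98 and 6.28 at 20 °C (1.79 ± 0.22, adjusted p = 9.2e-04). In both, every 25 °C array lay at least 1 unit above every 20 °C array. CG7565 had 6.30, 6.09 and 6.21 at 25 °C and 5.09, 5.00 and 4.62 at 20 °C (1.30 ± 0.13, adjusted p = 1.5e-04). Further rises were those of CG1503 (1.61 ± 0.25), CG4496 (1.08 ± 0.19), CG11247 (0.55 ± 0.10) and CG6878 (0.45 ± 0.09), and further falls those of CG2187 (-1.40 ± 0.22), CG31517 (-0.94 ± 0.15), CG8306, a member of the fatty acyl-CoA reductase family (-0.94 ± 0.18), CG32536 (-0.84 ± 0.13) and CG3184 (-0.82 ± 0.15). Their adjusted p lay between 0.0084 and 0.047, and each call in this last group of genes ended without at least 1 array (highest adjusted p 0.33, for CG6878). Those of CG4496, CG11247, CG8306 and CG3184 ended without any 1 of the 6 arrays. The 2 unnamed probe sets had log2 changes of 0.96 ± 0.15 and -1.40 ± 0.24.

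Called genes lay on every chromosome arm except the fourth chromosome, with the highest share on the X. The difference between arms was not tested. By representing probe set, 35 of 11982 genes (0.292%) were called, namely 10 of 1873 on the X (0.534%), 3 of 2205 on 2L (0.136%), 8 of 2427 on 2R (0.330%), 6 of 2344 on 3L (0.256%), 8 of 2974 on 3R (0.269%) and 0 of 65 on the fourth chromosome. The closest pair of called genes on an arm, RYBP and PPO3 on 2R, lay 57 measured genes apart.

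Heat shock proteins and chaperones, which refold damaged proteins, had 0 of 23 measured members called, against the 0.292% of all genes. In yw, 1 of the 23 was called, higher at 25 °C, and the list's median was 0.05. The values that follow are those of Marcal1del/del. Their log2 changes ran between -0.17 (stv) and 0.52 (l(2)efl), 16 of 23 were positive, and the median was 0.04. At an unadjusted p under 0.05, 1 member (DnaJ-1) was higher and 0 were lower. The list averaged 9.45, 9.41 and 9.36 at 25 °C and 9.33, 9.35 and 9.33 at 20 °C. DnaJ-1, a co-chaperone gene, had 11.25, 11.13 and 11.14 at 25 °C and 10.83, 10.73 and 10.88 at 20 °C (0.36 ± 0.09, adjusted p = 0.22). Its groups did not overlap, as was so for 10.1% of all probe sets, and it did not pass the test. The inducible Hsp68 differed by 0.40 ± 0.22, Hsp26 by 0.04, Hsp27 by 0.05, and the constitutive Hsc70-4 by -0.06. The heat shock transcription factor gene Hsf differed by 0.08.

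**Figure D3:**
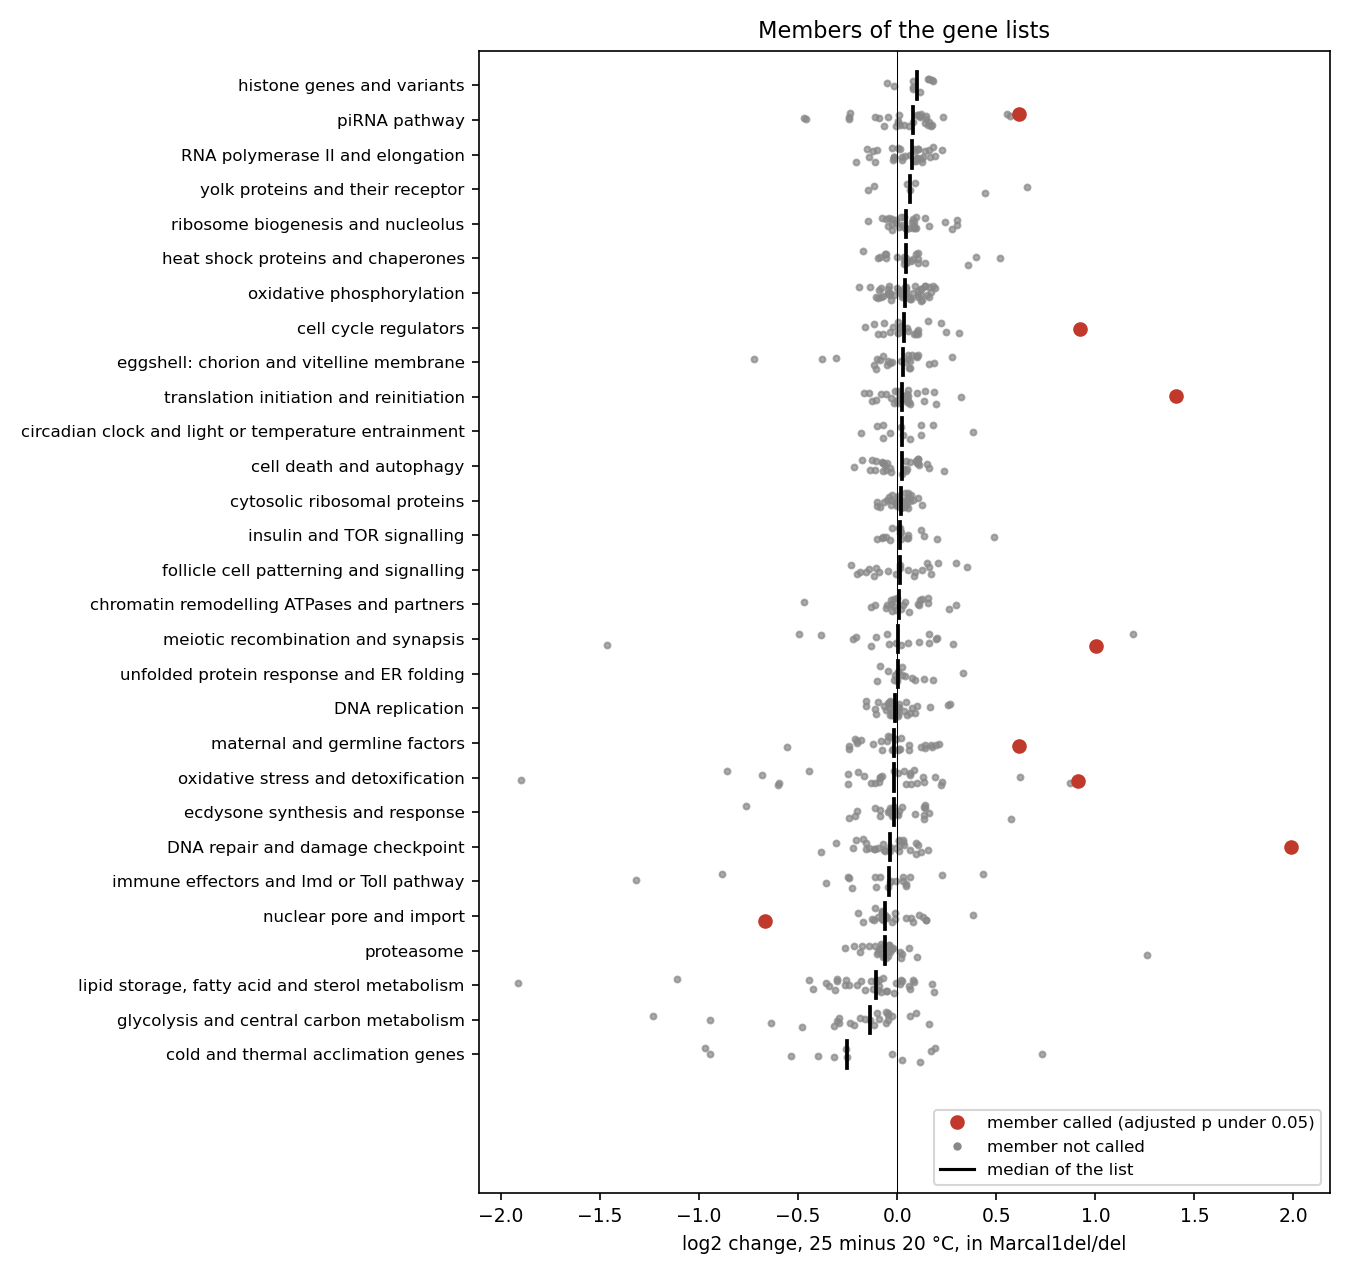
Log2 change (25 °C minus 20 °C, horizontal axis) in Marcal1del/del ovaries of every measured member of each functional gene list, with called members in red, others in grey and the list's median as a black bar. Most medians lie near 0, the cold and thermal acclimation list has the lowest (-0.25), and no list holds more than 1 called member.

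Other stress and temperature lists likewise held no call, where 0.292% of all genes were called. Of 12 clock and entrainment genes the median log2 change was 0.03, of 17 unfolded protein response genes 0.01 and of 20 immune genes -0.04, and at an unadjusted p under 0.05 these lists had 0, 1 and 0 members. The 13 cold and thermal acclimation genes had a median of -0.25 with 5 positive, and 2 were lower at an unadjusted p under 0.05. Among the 13, the calcium-binding regucalcin gene smp-30 differed by -0.97 and the trehalose synthesis gene Tps1 by -0.94, while Fst, which responds during recovery from cold, differed by -0.03.

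No gene of the egg production lists was called, where 0.292% of all genes were. The 26 eggshell genes (chorion and vitelline membrane) had 0 calls, 14 positive values and a median of 0.03, and averaged 11.17, 11.20 and 11.49 at 25 °C and 11.70, 11.48 and 10.75 at 20 °C. The 20 °C arrays thus spanned the 25 °C arrays. Yolk proteins and their receptor (7 genes, median 0.07) and follicle cell patterning genes (22 genes, median 0.01) also had no call. Among nuclear and growth functions, no member was called of DNA replication (36 genes, median -0.01), RNA polymerase II and elongation (34, median 0.07), chromatin remodelling (24, median 0.01), histones (10, median 0.10), cell death and autophagy (31, median 0.03), cytosolic ribosomal proteins (33, median 0.02), ribosome biogenesis (31, median 0.04), ecdysone (27, median -0.02) or insulin and TOR signalling (18, median 0.01). Oxidative phosphorylation (53 genes) had 36 positive members and a median of 0.04, and the proteasome (30 genes) had 6 positive members and a median of -0.06. Of all genes, 51.2% were positive. At an unadjusted p under 0.05, 2.81% of all genes were higher and 2.32% lower. At an unadjusted p under 0.05, 2 genes of ribosome biogenesis, 2 of insulin and TOR signalling and 1 of the proteasome were higher, 1 of chromatin remodelling and 1 of ecdysone were lower, and the other lists of this paragraph had 0. The proteasome gene Rpt3R had 4.74, 5.18 and 4.86 at 25 °C and 3.72, 3.58 and 3.70 at 20 °C (1.26 ± 0.26, adjusted p = 0.086).

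Genes of glycolysis and of lipid metabolism had mostly negative values without a call, whereas those of oxidative phosphorylation, given above, were mostly positive. In glycolysis and central carbon metabolism 3 of 25 genes were positive, against 51.2% of all genes, and the median was -0.14. In lipid storage, fatty acid and sterol metabolism 9 of 37 were positive, with a median of -0.11. Each list had 6 members lower and 0 higher at an unadjusted p under 0.05, against 2.32% lower and 2.81% higher of all genes. The fatty acid synthase gene FASN3 had 5.5, 4.1 and 3.1 at 25 °C, against 5.8, 6.5 and 6.2 at 20 °C (-1.91 ± 0.45, adjusted p = 0.16). ACC, the acetyl-CoA carboxylase that commits carbon to fatty acids, had 9.10, 8.81 and 8.86 at 25 °C, against 9.17, 9.49 and 9.45 at 20 °C (-0.45 ± 0.15, adjusted p = 0.63). The nearest arrays of the 2 ACC groups were less than 0.1 units apart. The gluconeogenic gene Pepck1 differed by -1.23 ± 0.49 (adjusted p = 0.96) and the Krebs cycle gene Idh3b by -0.48 ± 0.12 (adjusted p = 0.20). Markers of other tissues had values in the same direction. Of 12 fat body markers 3 were positive, with a median of -0.24, and the list averaged 5.90, 6.27 and 5.47 at 25 °C and 6.51, 6.29 and 5.53 at 20 °C. Of 16 spermatheca and seminal receptacle markers 3 were positive, with a median of -0.28, and its secreted protease genes CG31681 and Send1 differed by -2.41 and -2.08. The lipoprotein gene apolpp, in both the fat body and the lipid list, had 9.66, 9.03 and 7.36 at 25 °C and 10.55, 10.27 and 8.56 at 20 °C. The part of these tissues in the glycolysis and lipid values was not tested. The remaining marker lists had medians of 0.07 (muscle), 0.09 (hemocyte), 0.01 (gut), -0.01 (testis), -0.03 (neuron), -0.01 (germline), -0.04 (follicle cells) and 0.00 (accessory gland), and aub was the one called gene of the germline markers.

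The response of yw ovaries to the same temperatures shares no array with that of Marcal1del/del, but both use the same estimate of spread. That spread comes from the fit of all 18 arrays, so a probe set with a small spread is easier to call in both. In yw, 48 probe sets were called (0.256%), 26 higher at 25 °C and 22 lower, and 1395 (7.43%) had an unadjusted p under 0.05. Of the 48, 18 were also called in Marcal1del/del in the same direction, 12 higher and 6 lower, which is 47.4% of the Marcal1del/del calls and 37.5% of the yw calls. No set was called in opposite directions. Leaving out 1 array of either genotype at a time gave between 7 and 22 shared calls, with 7 without Marcal1del/del 25 °C replicate 2, 11 without Marcal1del/del 25 °C replicate 3 and 10 without Marcal1del/del 20 °C replicate 2. The count of yw calls itself was 146 without yw 25 °C replicate 1, 24 and 25 without yw 25 °C replicates 2 and 3, and 23 and 27 without yw 20 °C replicates 2 and 3. The shared genes were CG7381, CG7565, CG7800, MCTS1, Roc1a, aub, 5PtaseI, CkIIalpha-i3, RYBP, CG4496 and CG6878 among the rises and CG10581, CG10208, Rab27, CG32536 and Kap-alpha3 among the falls, with both unnamed sets. Most changes were close in size: CG10581 changed by -3.01 in Marcal1del/del and by -2.92 in yw, and CG7381 by 2.29 in Marcal1del/del and by 2.35 in yw. MCTS1 changed by 1.41 in Marcal1del/del and by 1.35 in yw, and Roc1a by 0.92 in both. aub changed by 0.62 in Marcal1del/del and by 0.55 in yw. The unnamed set among the falls and Rab27 had larger changes in yw, the first -1.40 in Marcal1del/del and -2.11 in yw and Rab27 -1.31 in Marcal1del/del and -1.92 in yw, with an adjusted p of 1.00 for either difference.

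Of the 25 Marcal1del/del rises, 24 had a positive change in yw too, and all 13 falls had a negative one. The median change of the rises was 1.08 in Marcal1del/del and 0.65 in yw, and that of the falls was -0.94 in Marcal1del/del and -0.90 in yw. The sets were chosen for a large change in Marcal1del/del, so a smaller median in yw is a description and not a test. Genes with much smaller values in yw included rst (2.37 in Marcal1del/del and 0.35 in yw), Asph (2.17 in Marcal1del/del and 0.55 in yw), CG1503 (1.61 in Marcal1del/del and 0.52 in yw) and Tsp96F (0.75 in Marcal1del/del and 0.11 in yw), and the differences were not called, with an adjusted p of 1.00 each. Across all 18769 probe sets the changes in the 2 genotypes correlated with r = 0.47 and rho = 0.35, given as a description, since probe sets do not count as replicates.

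**Figure D4:**
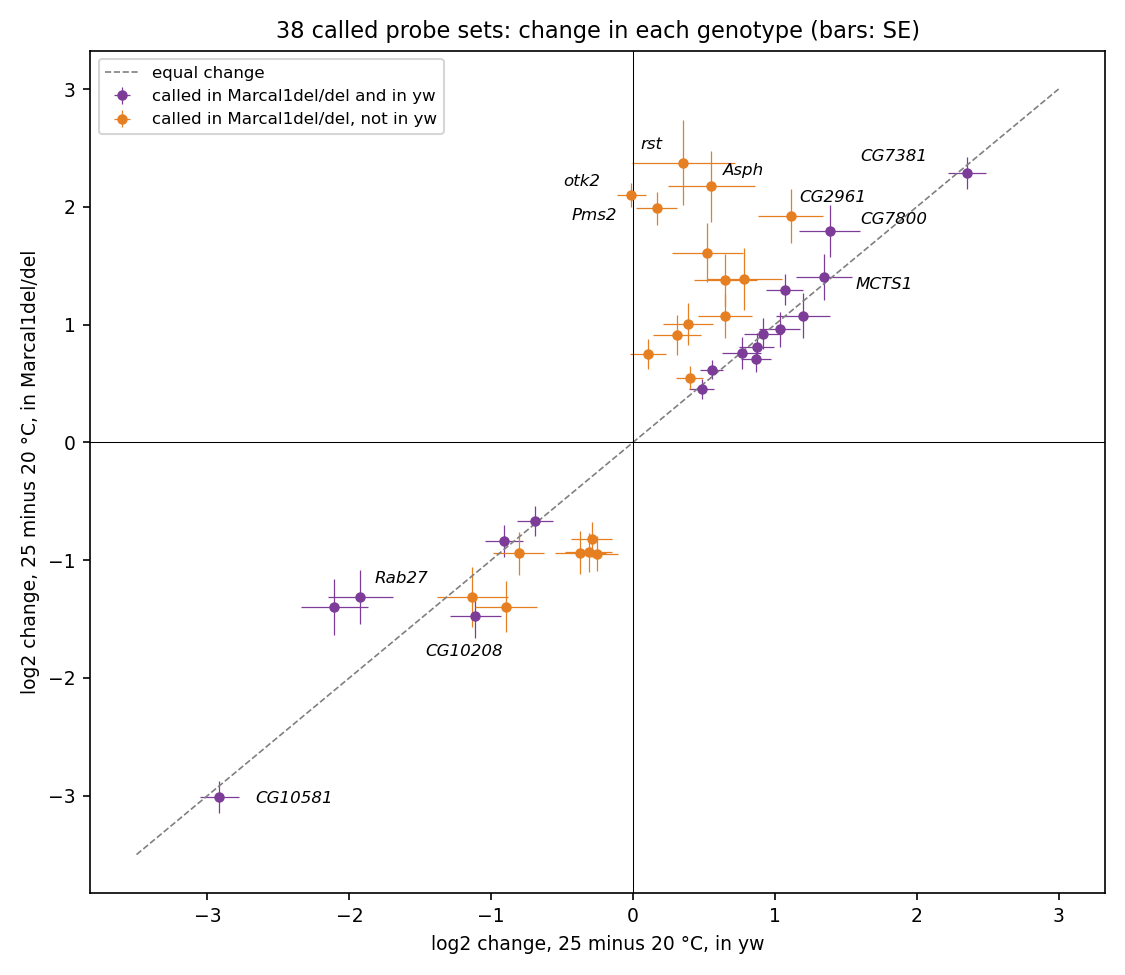
Log2 change (25 °C minus 20 °C) of the 38 probe sets called in Marcal1del/del, in that genotype (vertical axis) against yw (horizontal axis), with SE bars, purple where also called in yw and orange where not. Most shared calls lie near the dashed line of equal change, Rab27 and the unnamed fall lie off it with the larger fall in yw, and otk2 and Pms2 lie near 0 in yw (-0.01 and 0.17) at about 2 in Marcal1del/del.

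Whether the temperature change itself differed between the genotypes was tested with the difference of the log2 changes. It was called for 2 of 18769 probe sets (0.0107%), those of otk2 and Pms2, both higher in Marcal1del/del, and 295 sets (1.57%) had an unadjusted p under 0.05. For otk2 the change was 2.10 in Marcal1del/del and -0.01 in yw, a difference of 2.11 ± 0.15 (adjusted p = 2.6e-06). For Pms2 it was 1.99 in Marcal1del/del and 0.17 in yw, a difference of 1.82 ± 0.20 (adjusted p = 0.0010). Both stayed called in every alternative setting tried, with an adjusted p of at most 4.1e-04 for otk2 and 0.041 for Pms2.

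Across all 6 groups the levels of otk2 and Pms2 followed different patterns. otk2 averaged 7.57 ± 0.17 at 25 °C and 5.47 ± 0.11 at 20 °C in Marcal1del/del (SD, n = 3), 4.57 ± 0.11 at 25 °C and 4.59 ± 0.11 at 20 °C in yw, 7.09 ± 0.04 in RpII2154/FM7;Marcal1del/del and 6.84 ± 0.09 in RpII2154/FM7 at 20 °C. Its levels thus also separated stocks at a single temperature, and Marcal1del/del at 20 °C lay between yw and the RpII2154/FM7 stocks. Pms2 averaged 7.92 ± 0.09 at 25 °C and 5.93 ± 0.22 at 20 °C in Marcal1del/del, 8.54 ± 0.31 in yw at 25 °C and 8.38 ± 0.15 in yw at 20 °C, 8.55 ± 0.07 in RpII2154/FM7;Marcal1del/del and 8.23 ± 0.09 in RpII2154/FM7. Only the 3 Marcal1del/del arrays at 20 °C lay below 7, and RpII2154/FM7;Marcal1del/del ovaries at the same temperature, which carry the deletion too, averaged 8.55. Of the 6 groups, Marcal1del/del at 20 °C also had the lowest mean for rst (4.77), CG1503 (4.95), pon (6.57), Tsp96F (8.74) and GstE6 (10.60). RpII2154/FM7;Marcal1del/del at 20 °C averaged 7.98, 6.88, 8.19, 9.51 and 11.59 for these genes, above the Marcal1del/del means at 25 °C. The labels do not say how the 25 °C and 20 °C flies of a genotype were related by stock or culture.

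**Figure D5:**
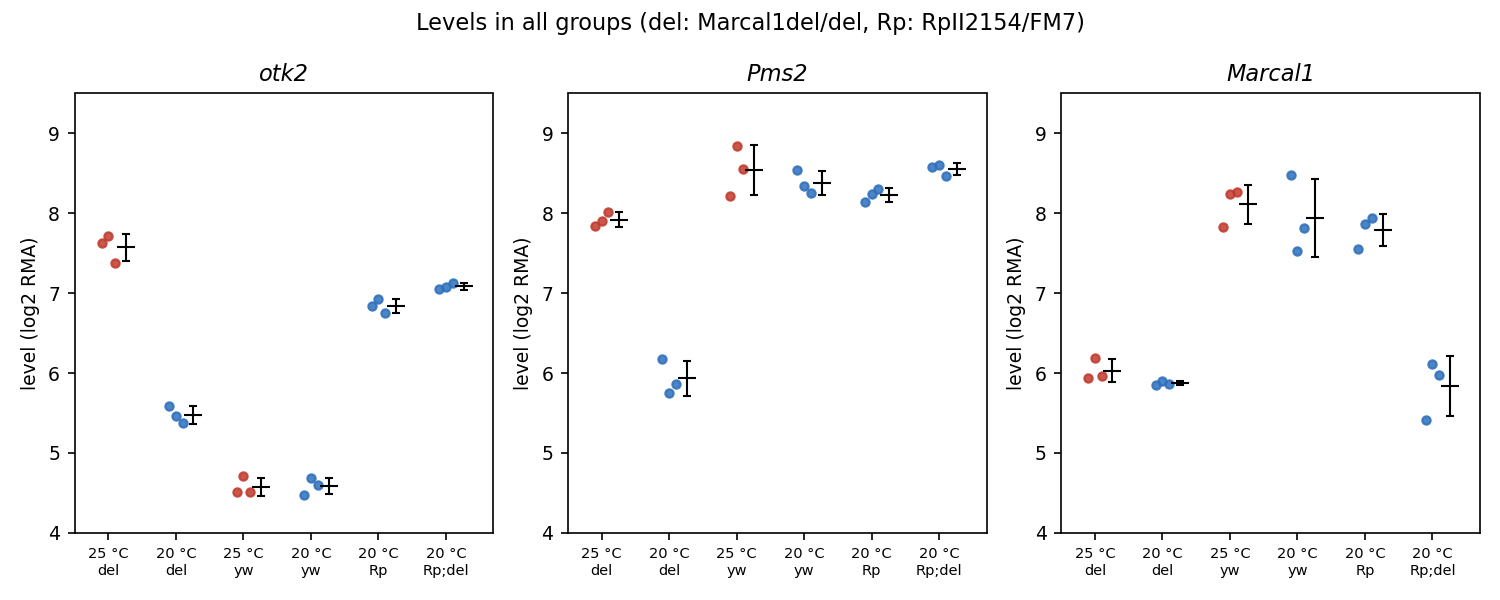
Level (log2 RMA, vertical axes) of otk2, Pms2 and Marcal1 on each array of the 6 groups, with the mean and SD of 3 arrays, red at 25 °C and blue at 20 °C. Pms2 is low (5.75 to 6.18) only in Marcal1del/del at 20 °C, otk2 differs between stocks as well as between the Marcal1del/del temperatures, and Marcal1 is low in the groups with the deletion.

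Arrays of yw that stood apart bear on this comparison between genotypes. yw replicate 1 at 25 °C had a muscle marker level of 7.74, against 5.78 and 6.03 on the other two, and yw replicate 1 at 20 °C had an eggshell level of 8.60, against 11.0 and 10.9. Eggshell levels of the 6 Marcal1del/del arrays, 10.75 to 11.70, lay above those of the yw arrays at 25 °C, 9.27, 9.04 and 9.84. Without these 2 arrays and RpII2154/FM7 replicate 3, the Marcal1del/del contrast itself had 64 calls (39 higher and 25 lower) that included 37 of the 38, and yw had 788. What set RpII2154/FM7 replicate 3 apart is not given here. The difference was then called for 13 probe sets. Besides otk2 (2.13) and Pms2 (1.58), these included rst (2.71) and Asph (2.03), larger in Marcal1del/del, and Rab2 (1.33), which fell in yw (-1.57). The growth factor gene Pvf2 (-2.50), CR44101 (-1.93) and Ku80 (-1.07) had a lower change in Marcal1del/del than in yw. The yw arrays were left out for their own muscle and eggshell levels, so calls of such genes follow from that choice and are not given. The other added calls rest on that choice too, since the unweighted fit of all 18 arrays called only otk2 and Pms2. Asph had 8.36 on the left-out yw array at 25 °C, against 7.18 and 7.07 on the others. For rst, the left-out yw array at 20 °C had 5.69, against 6.78 and 6.94. The part of egg chamber stage and of muscle in these differences was not tested.

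With all arrays, the genes with the smallest p for a lower change in Marcal1del/del than in yw were not called. CR44101 had 3.52, 2.88 and 3.08 at 25 °C and 4.39, 4.09 and 3.78 at 20 °C in Marcal1del/del, where it lay near or below the array medians. In yw it averaged 8.36 at 25 °C and 7.61 at 20 °C, and the difference of changes was -1.68 ± 0.29 (adjusted p = 0.19). Ku80 (-0.78), CG31262 (-0.65), CG9331 (-0.60) and sfl (-0.56), and, in the other direction, Hayan (0.99) and Ctl2 (0.47), had an adjusted p of 1.00 each.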

How the data were processed

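RNA of 18 ovary samples was hybridised to 18 arrays, 3 per group. The deposited values are log2 expression levels, 1 per probe set and array, made by the authors with RMA per the submitters' processing notes, and its version is not stated. Because RMA forces the arrays onto one distribution, a shift of most transcripts together would be hidden. Of 18952 probe sets, 183 controls were left out and 18769 tested without a filter. Platform annotation named 1 gene for 13647 sets, several for 402 and none for 4720. A gene with several sets was represented by the brightest (11982 genes).

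Group means of all 18 arrays were fitted with limma 3.58.1 in R 4.3.3 (lmFit, eBayes), which gives every adjusted p here (Benjamini-Hochberg over 18769 sets, called under 0.05). The procedure was tested on simulated data. The genes named were the 15 largest called rises and all called falls, called members and up to 3 uncalled members of each list by smallest p, and up to 5 genes each way for the genotype difference. Because calls were few, the other called genes, a few relatives of named genes and some members at the ends of their lists were added after their values were seen. The members, the 39 lists and the tests were chosen with earlier results of these data known. Replicates are called biological in the labels. Their numbers were taken from the titles, and the array names of the Marcal1del/del 25 °C samples are not in that order. Correlations of deviations from group means were -0.04, -0.17 and 0.26 for equal numbers. They were 0.16 for 25 °C replicate 1 with 20 °C replicate 2 and 0.28 for 25 °C replicate 2 with 20 °C replicate 1. The remaining pairs were negative. Whether arrays were paired is not known, so the replicate block rests on the numbers in the titles. Alternatives covered the arrays fitted, replicate block, arrays left out, filter, variance model, array weights and normalization.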

Additional observations from a re-analysis of the deposited data

Results flagged for a closer look

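For 2 genes the change between 25 and 20 °C differed between the genotypes by the test of the difference itself. For otk2 the log2 change was larger in Marcal1del/del than in yw by 2.11, and for Pms2 by 1.82. In each, all 3 Marcal1del/del arrays at 25 °C lay above all 3 at 20 °C, while the yw arrays of the 2 temperatures overlapped.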

How the results depend on the processing

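The 38 calls in Marcal1del/del became 16 with only these 6 arrays fitted, 25 with the 12 Marcal1del/del and yw arrays, 64 without the 3 arrays that stood apart and 159 with array weights (91 higher and 68 lower, the 38 included). With the replicate number as a block there were 36 calls in all 18 arrays and 11 in the 6 arrays alone. Leaving out 1 Marcal1del/del array gave 10 to 32 calls. The 48 calls in yw became 31 with 12 arrays, 788 without the arrays that stood apart and 1686 with array weights, 39 with the replicate block, and 23 to 146 with 1 array left out. The 2 calls of the difference became 13 without the arrays that stood apart and 6 with array weights, and stayed 2 with the replicate block and with any 1 array left out. The causes were not tested. No change of a called gene reversed. Of the 36 named genes, 5 kept their calls in every alternative and 31 lost them in at least 1. Of 662 list medians under alternatives, 5 moved beyond the spread between replicates. The number of arrays, 3 per group, limits the precision, and signal above background was not tested for probe sets near or below the array medians, such as the called set of GstE9 at 20 °C and that of CR44101 in Marcal1del/del.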
